A study of Triticum aestivum with 6 samples.

Results

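The levels of 7 MADS-box flowering genes were read, with 1 probe each, in the crown tissues of synthetic hexaploid wheat. These tissues include the shoot apical meristem. The members are the 7 probes that the study names Vrn-A1, TaAP1-2, TaAP1-3, BM5A, WM7, WM8 and WM13, and all 7 were found among the 37826 non-control probes of the KOMUGI 38k array, a 1-color oligonucleotide array of wheat transcripts. All 7 were chosen with results of these same arrays in view. In crt/KU-2025, all 7 were lower than in WT at a limma adjusted p under 0.05, against 25.9% of all probes. Of these, 6 were lower by 3-fold or more, against 11.0%. On no array of that line were 5 of the 7 well above background, against 3.77% of the probes well above it on all other arrays. The arrays of that line lay on a slide of their own. In Ldn/KU-2025, which has the same grass-clump dwarf habit, none of the 7 changed by 3-fold. Of all probes, 0.196% were called lower and 0.968% higher there. BM5A was 1.69-fold higher than in WT and WM7 was 1.47-fold lower, but neither passed the test once any single WT or Ldn/KU-2025 array was left out, and the other 5 did not pass it at all.

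WT was the synthetic line of Langdon (Ldn), a tetraploid durum wheat, and Aegilops tauschii accession KU-2059, and its growth is normal. Ldn/KU-2025 shares the Ldn parent with WT and has Ae. tauschii KU-2025 as its D-genome donor. The third line, crt/KU-2025, shares KU-2025 with Ldn/KU-2025 and has a different tetraploid parent, T. turgidum subsp. carthlicum. Both KU-2025 lines are grass-clump dwarfs, short plants with many tillers and late heading at normal temperature. Plants of all 3 lines were kept at 24°C under long days (18 h of light, 6 h of dark) until 8 weeks old, and each was measured on 2 arrays described as independent experiments. Each genotype is a single synthetic line, so WT and crt/KU-2025 differ in both parents at once. Whether 1 plant or several went into each array was not given in the sources used here.

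MADS-box proteins are transcription factors that bind DNA as dimers or larger complexes and set the identity of meristems and floral organs. Those of the APETALA1/FRUITFULL (AP1/FUL) type, named after their Arabidopsis relatives, promote the change of the shoot apex from making leaves to making an inflorescence. Vrn-1, the wheat gene of this type that governs the need for vernalization, is switched on by long cold in winter wheats, and dominant alleles such as that at Vrn-A1 give a spring habit. Each line was described as holding a dominant Vrn-A1 allele from Ldn, although the parents of crt/KU-2025 do not include Ldn.

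The line of each array is the one its label gives. Of the gene names, 4 (BM5A, WM7, WM8 and WM13) are those of the probes' best database matches and 3 (Vrn-A1, TaAP1-2 and TaAP1-3) are those used in the study's text, and they do not separate all the genes. The Vrn-A1 and WM8 probes were matched to the same database entry, as were the TaAP1-2 and WM7 probes. A hexaploid wheat carries copies of most genes on its A, B and D genomes, and which of the copies each probe binds was not tested. None of the 7 probe names was found in the RefSeq table of the wheat genome (0 matched), so no genomic position is given. Of the 7 probes, 4 (BM5A, WM7, WM8 and WM13) come from the study's list of transcription factors that fell in crt/KU-2025 on these same arrays. The other 3 come from its account of flowering genes, which names them as lower in a dwarf line on these same arrays. All 7 were thus picked from results of these same arrays, not all of them for crt/KU-2025. Their direction in crt/KU-2025 is a description and not independent evidence. Levels of different probes were not compared, because probes differ in how well they bind.

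The deposited signals were already scaled between arrays. Between 75.1% and 77.6% of the probes of an array were well above background, none was saturated, and the lowest signal marked well above background was between 23.9 and 27.9. One slide held the WT and Ldn/KU-2025 arrays, and another, scanned separately, held those of crt/KU-2025. For crt/KU-2025, line and slide cannot be told apart. The SD of the log2 difference between the 2 arrays of a line over all probes was 0.47 for WT, 0.47 for Ldn/KU-2025 and 0.78 for crt/KU-2025. In whole crown tissue, fewer cells with a transcript and less of it per cell cannot be told apart.

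The probe of Vrn-A1 (wheat0130Contig14238), the vernalization gene, had signals of 158.3 and 169.9 on the WT arrays, 178.8 and 158.9 on those of Ldn/KU-2025, and 8.4 and 13.3 on those of crt/KU-2025. The WT and Ldn/KU-2025 values overlapped, and both crt/KU-2025 values lay below all the others and were not well above background. WM8 (rwhfl24d04), whose probe was matched to the same entry, had signals of 1564.6 and 1643.3 on the WT arrays, 1376.9 and 1442.7 on those of Ldn/KU-2025, and 46.6 and 72.6 on those of crt/KU-2025. The 3 lines did not overlap for WM8, with crt/KU-2025 far below the other lines yet still well above background on both arrays. Of the members that fell by 3-fold or more, WM8 was the only one measured above background in all 3 lines.

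BM5A (wheat0130Contig1725) carries the name of the barley counterpart of Vrn-1. Its signals were 121.3 and 120.3 on the WT arrays, 205.9 and 202.1 on those of Ldn/KU-2025, and 20.7 and 23.3 on those of crt/KU-2025. Ldn/KU-2025 was the highest of the lines for this probe, WT lay between, and crt/KU-2025 was not well above background on either array. Among the 7 probes, BM5A alone passed the test as higher in Ldn/KU-2025 than in WT.

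**Figure D1:**
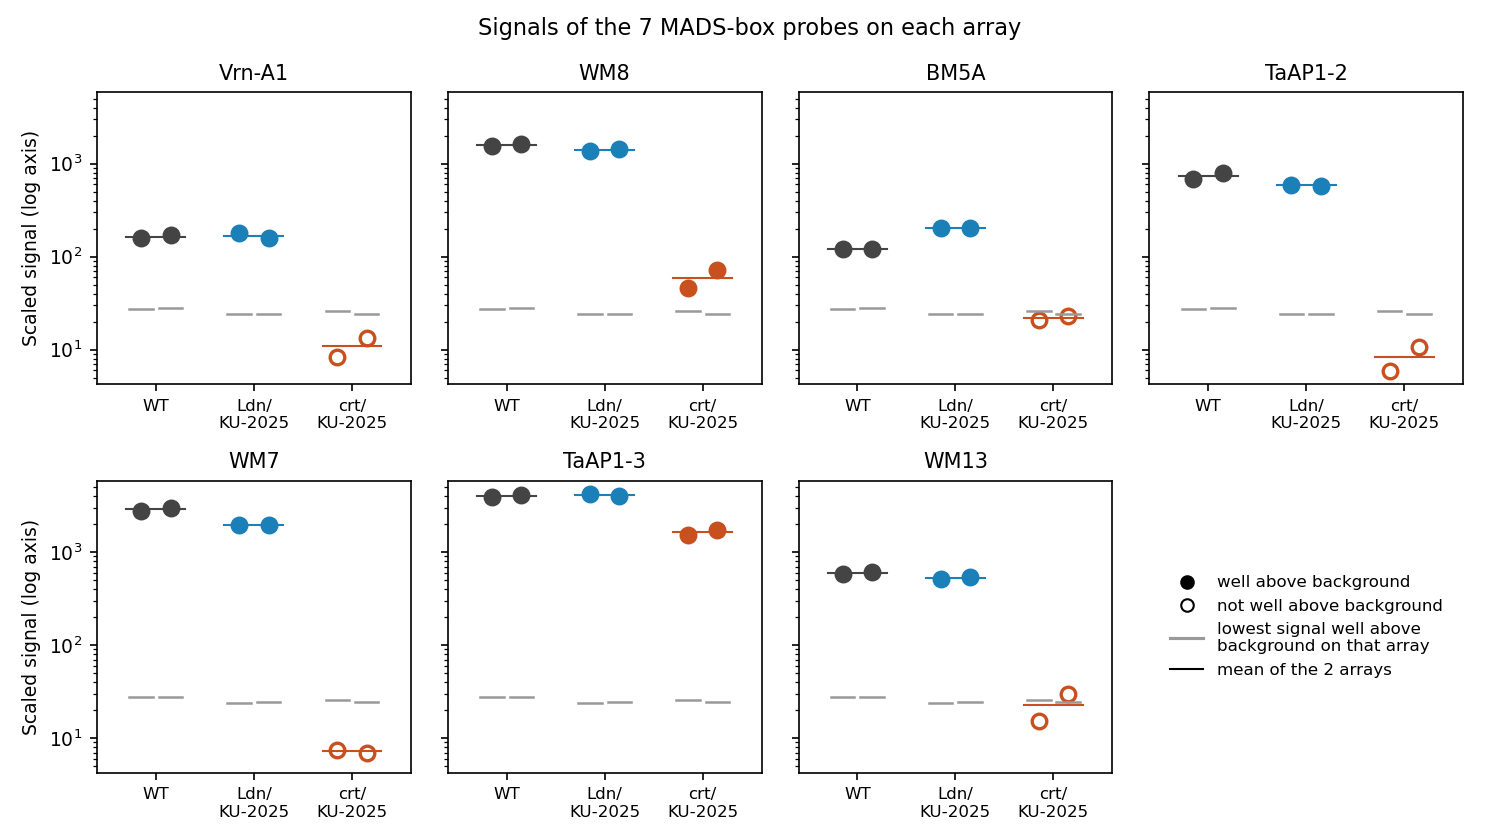
Scaled signal on a log axis of each of the 7 MADS-box probes on the 6 arrays, with a point per array, a coloured line at the mean of the 2 arrays of a line, and open points where the probe was not well above background. Grey ticks mark the lowest signal well above background on each array, 23.9 to 27.9. WT and Ldn/KU-2025 lie close together in every panel, the widest gap being that of BM5A, while the crt/KU-2025 points lie below both and are filled only for WM8 and TaAP1-3.

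TaAP1-2 (rwhfl48m16), an AP1/FUL-type gene, had signals of 678.2 and 790.7 on the WT arrays, 594.1 and 581.6 on those of Ldn/KU-2025, and 5.9 and 10.8 on those of crt/KU-2025. The Ldn/KU-2025 values lay just below those of WT without overlap, and the crt/KU-2025 values were near the lowest signals on the array. WM7 (rwhf1p23), matched to the same entry as TaAP1-2, had signals of 2808.9 and 3024.1 on the WT arrays, 1983.5 and 1987.4 on those of Ldn/KU-2025, and 7.5 and 6.9 on those of crt/KU-2025. WM7 thus had well separated levels in the 3 lines, in the same order as the TaAP1-2 probe, and was not well above background in crt/KU-2025.

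TaAP1-3 (wheat0130Contig14728), another AP1/FUL-type gene, had signals of 3924.9 and 4114.0 on the WT arrays, 4252.7 and 4056.4 on those of Ldn/KU-2025, and 1531.5 and 1751.8 on those of crt/KU-2025. The values of WT and Ldn/KU-2025 overlapped, and those of crt/KU-2025 were lower but well above background. Its mean in crt/KU-2025 was 40.8% of that in WT, and that of WM8 was 3.72%. The other 5 members were not well above background in crt/KU-2025 and have only the bounds given with the comparison.

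WM13 (ncbi_gi_40644779_305), a wheat MADS-box gene known here only by its name, had signals of 588.7 and 618.9 on the WT arrays, 518.0 and 539.1 on those of Ldn/KU-2025, and 15.2 and 29.9 on those of crt/KU-2025. The crt/KU-2025 arrays were not well above background and differed from each other by 1.97-fold, the widest gap between replicates of any member. For all members in WT and Ldn/KU-2025, the higher replicate was at most 1.17-fold the lower.

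Setting Ldn/KU-2025 against WT asks whether the grass-clump dwarf line with the same tetraploid parent has altered levels of the flowering genes, and both lines lay on the same slide. By the rule of at least 3-fold and an adjusted p under 0.05 (limma over all 37826 probes, Benjamini-Hochberg), 0 of the 7 members were down-regulated and 0 were up-regulated, against 0.196% and 0.968% of all probes. At an adjusted p under 0.05 with no fold limit, 1 was lower and 1 was higher, against 1.48% and 6.33% of all probes. At an unadjusted p under 0.05 the same 1 member was lower and the same 1 higher, against 13.5% and 17.1%. The median log2 ratio of the members was -0.19, beside -0.02 for all probes.

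BM5A was higher in Ldn/KU-2025 by 0.76 on the log2 scale (SE 0.08, limma adjusted p = 0.0209). WM7 was lower, with a log2 ratio of -0.55 (SE 0.08, limma adjusted p = 0.0336). Both calls were lost when any single WT or Ldn/KU-2025 array was left out, with limma adjusted p of up to 0.160 for BM5A and up to 0.208 for WM7, although the ratios stayed between 0.74 and 0.77 and between -0.61 and -0.50. The replicate block gave 0.0813 for BM5A and 0.111 for WM7. A fit of only the arrays on this slide, those of WT and Ldn/KU-2025, gave limma adjusted p of 0.00914 for BM5A and 0.0176 for WM7.

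The other 5 members did not pass the test in this comparison, and Vrn-A1 and TaAP1-3 had ratios of either sign depending on the scaling. The log2 ratio of Vrn-A1 was 0.04 (95% interval -0.63 to 0.70, limma adjusted p = 0.927) and that of TaAP1-3 was 0.05 (95% interval -0.21 to 0.30, limma adjusted p = 0.757). For WM8 the ratio was -0.19 (95% interval -0.81 to 0.44). TaAP1-2 had a ratio of -0.32 (95% interval -1.17 to 0.54) and WM13 one of -0.19 (95% interval -1.12 to 0.74). The widest reach of these intervals, the lower end for TaAP1-2, is short of a 3-fold change. Their width comes from a spread pooled over the 3 lines, with the dim crt/KU-2025 arrays included. For TaAP1-2, WM8 and WM13 the SE was 0.31, 0.23 and 0.34. A fit of only the WT and Ldn/KU-2025 arrays gave SEs of 0.10, 0.05 and 0.05, with limma adjusted p of 0.0918, 0.0811 and 0.0722. TaAP1-2, WM8 and WM13 did not overlap between the lines and lay lower in Ldn/KU-2025, as did 37.7% of all probes. BM5A and WM7 did not overlap either, BM5A lying higher in Ldn/KU-2025, as did 35.0% of all probes.

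**Figure D2:**
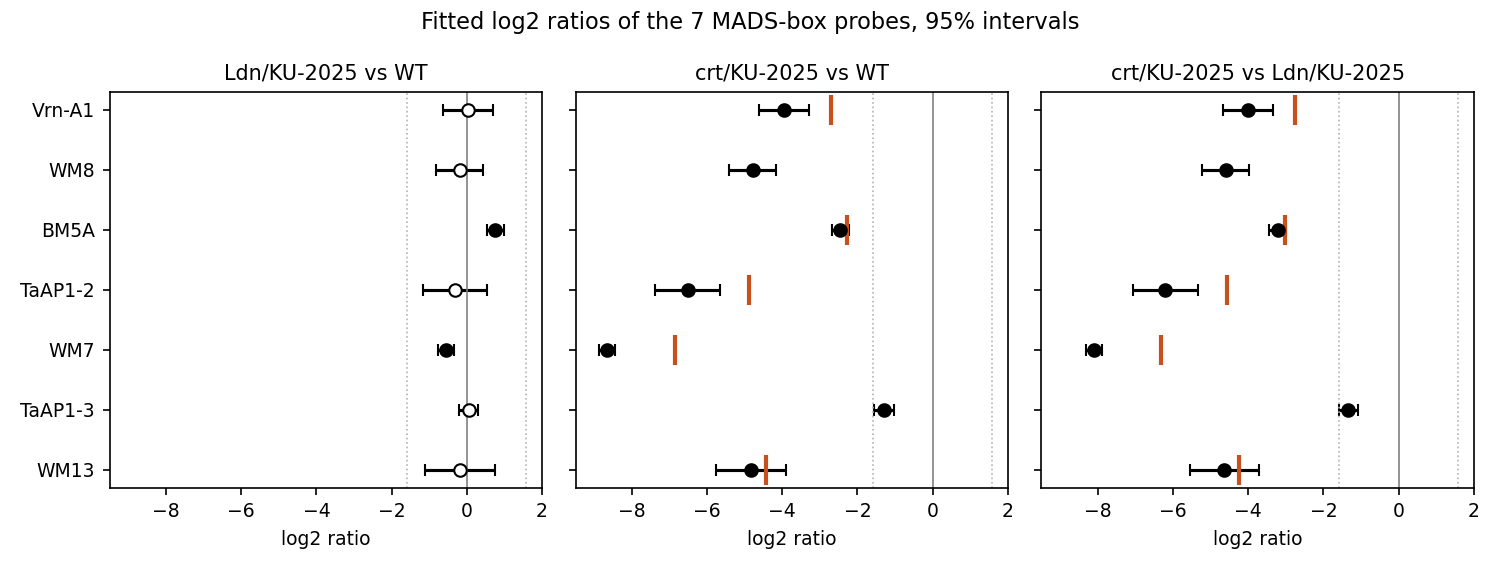
Log2 ratios of the 7 MADS-box probes from the limma fit in the 3 comparisons, with 95% intervals; filled points have an adjusted p under 0.05, dotted lines mark a 3-fold change, and orange ticks mark the ratio that can be stated where crt/KU-2025 was not well above background. In the first panel the points lie between -0.55 and 0.76, and in the other panels between -8.66 and -1.29.

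The comparison of crt/KU-2025 with WT takes in the other tetraploid parent as well. Of the 7 members, 6 were down-regulated and 0 up-regulated, where 11.0% of all probes were down-regulated and 11.8% up-regulated. All 7 were lower at an adjusted p under 0.05 with no fold limit, against 25.9% of all probes. The median log2 ratio of the 7 was -4.78, and -4.44 with the 5 dim members set at their bounds, beside 0.10 for all probes. All 7 also lay below WT without overlap, as did 39.1% of all probes.

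Of the members called, only WM8 was above background on all 4 arrays compared, and it was 27.6-fold lower in crt/KU-2025 (log2 ratio -4.78, SE 0.23, limma adjusted p = 0.000258). The other 5 have only a bound, which holds for the deposited signals. It is set by the lowest signal well above background on each array or by the probe's own signal where that was higher. WM7 was at least 117-fold lower (limma adjusted p = 2.36e-05), TaAP1-2 at least 29.3-fold (limma adjusted p = 0.000262) and WM13 at least 21.7-fold (limma adjusted p = 0.000636). Vrn-A1 was at least 6.56-fold lower (limma adjusted p = 0.000455) and BM5A at least 4.83-fold lower (limma adjusted p = 0.000126). TaAP1-3 was 2.45-fold lower (log2 ratio -1.29, SE 0.09, limma adjusted p = 0.000664), past the test but short of 3-fold.

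The log2 ratios measured for the dim members were -8.66 for WM7, -6.52 for TaAP1-2, -4.82 for WM13, -3.96 for Vrn-A1 and -2.46 for BM5A, on crt/KU-2025 signals near the floor of the array. These values, the bounds and the ratio of WM8 depend on how the background is treated. With a normexp correction and an offset of 50, the log2 ratio was -4.19 for WM7, -2.78 for WM8, -2.45 for TaAP1-2, -1.95 for WM13, -0.93 for Vrn-A1 and -0.56 for BM5A, so that 4 of the 7 were called, without Vrn-A1 and BM5A. Under that correction, the ratio of each dim member fell short of its bound. All 7 were still lower with an adjusted p under 0.05.

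In all, 5 members (Vrn-A1, TaAP1-2, BM5A, WM7 and WM13) were well above background on all WT and Ldn/KU-2025 arrays and on no crt/KU-2025 array. Among the 27571 probes of the array that were above background on all arrays of the first 2 lines, 3.77% had no such array in crt/KU-2025.

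The direct comparison of the dwarf lines, which share KU-2025 and differ in the tetraploid parent, gave 6 of 7 members down-regulated and 0 up-regulated in crt/KU-2025, against 9.98% and 9.39% of all probes. All 7 passed the adjusted p with no fold limit as lower, against 25.0% of all probes, and all 7 lay lower without overlap, as did 32.6%. The median log2 ratio was -4.60, or -4.25 with 5 members at their bounds, beside 0.11 for all probes. WM8 was 24.2-fold lower (log2 ratio -4.60, SE 0.23, limma adjusted p = 0.000345). WM7 was at least 79.5-fold lower and TaAP1-2 at least 23.5-fold. WM13, BM5A and Vrn-A1 were at least 19.0-fold, 8.16-fold and 6.75-fold lower, with limma adjusted p of 0.000827, 9.64e-05 and 0.000536. TaAP1-3 was 2.54-fold lower (limma adjusted p = 0.000714). This comparison shares its crt/KU-2025 arrays with the preceding one.

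The log2 profiles of the members were set against each other. Likeness was measured as the root mean square difference between log2 profiles over the 6 arrays, each set to its own WT mean, among the 27884 probes well above background on both WT arrays. WM8 and WM13 were the most alike of the members, with a difference of 0.10 on the log2 scale: WM8 was the probe nearest to WM13, and WM13 was second nearest to WM8. The probes matched to a shared entry were less alike, with 0.50 for Vrn-A1 and WM8 and 1.28 for TaAP1-2 and WM7. The furthest apart were TaAP1-3 and WM7, with 4.27. Dim crt/KU-2025 signals enter these profiles as measured. Vrn-A1, TaAP1-2, BM5A, WM7 and WM13 were not well above background there, so their distances depend in part on probe brightness in WT. Such distances do not show that the genes changed by different amounts.

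Outside the members, the probe nearest to both WM8 and WM13 was MUGEST2003_23lib_Contig8453_p_1225, at 0.09 and 0.12. That nearest to Vrn-A1 was rwhhg20a05_p_225 at 0.12, to TaAP1-2 MUG006B01R990218 at 0.12, and to TaAP1-3 whyf15e07 at 0.04. BM5A was most like MUGEST2003_23lib_Contig3181_429, at 0.08, a probe whose signals were 2872.2 and 2860.6 on the WT arrays, 4814.3 and 4314.9 on those of Ldn/KU-2025, and 533.5 and 572.9 on those of crt/KU-2025. WM7 had its nearest probe, MUGEST2003_23lib_Contig10291_516, at 0.26, further than any other member had. The sources used here give no gene for these probes.

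A further 4 probes described as MADS-box genes were read beside the members, of which the first 2 described were chosen by the study as higher in Ldn/KU-2025 on these arrays. The CAULIFLOWER D-like probe (wheat0130Contig5167), named after a close Arabidopsis relative of AP1, had signals of 132.0 and 122.3 on the WT arrays, 613.9 and 576.8 on those of Ldn/KU-2025, and 372.6 and 403.3 on those of crt/KU-2025. Both dwarf lines lay above WT, 4.68-fold for Ldn/KU-2025 (limma adjusted p = 0.00420) and 3.05-fold for crt/KU-2025 (limma adjusted p = 0.000311). The probe of MADS-box transcription factor 56 (MUGEST2003_23lib_Contig15044_1125), in rice a relative of the floral activator SOC1, had signals of 674.7 and 643.2 on the WT arrays, 2264.8 and 2385.3 on those of Ldn/KU-2025, and 257.6 and 382.5 on those of crt/KU-2025. Its lines were in the same order as those of BM5A, with Ldn/KU-2025 highest and crt/KU-2025 lowest. It was 3.53-fold higher than WT in Ldn/KU-2025 (limma adjusted p = 0.0230) and 2.10-fold lower in crt/KU-2025 (limma adjusted p = 0.0119). When a WT or Ldn/KU-2025 array was left out, 0 or 1 of the 4 were still up-regulated in Ldn/KU-2025.

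WM30 (MUGEST2003_23lib_Contig4256_1071) was above background in crt/KU-2025 alone, where its signals were 115.2 and 88.2, at least 3.65-fold above WT (limma adjusted p = 0.00469). WM20 was not well above background on any array. The rule called 3 of the 4 probes up-regulated in crt/KU-2025, WM20 included, where 11.8% of all probes were. That count was 1 without replicate 2 of that line, 1 with 75th percentile scaling or the methods' t-test, and 0 with the normexp correction.

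**Figure D3:**
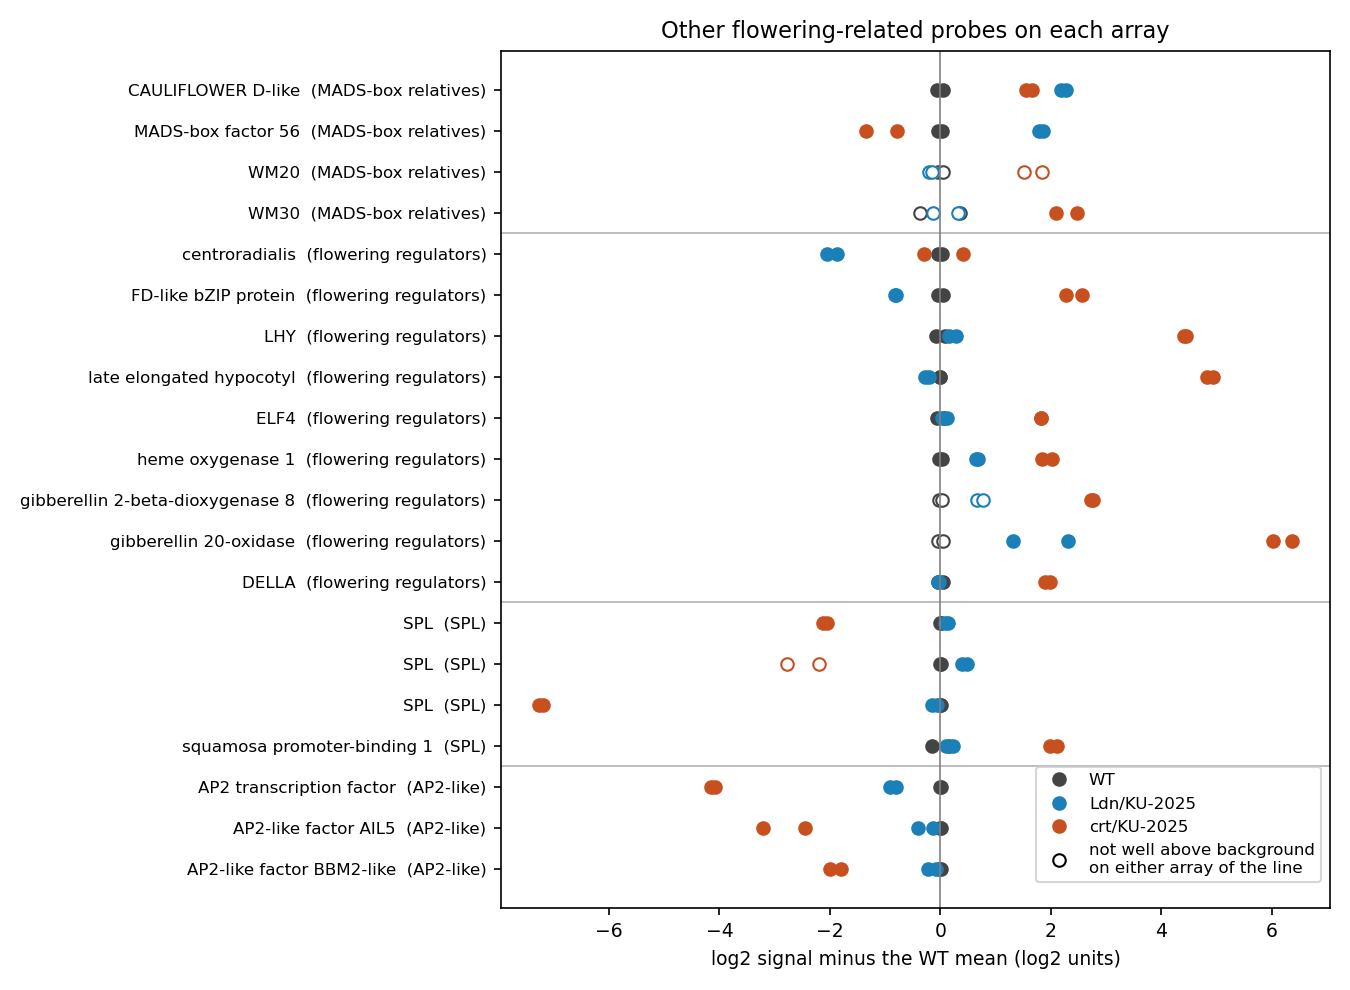
Log2 signal minus the WT mean of 20 other flowering-related probes on each array, grouped as MADS-box relatives, flowering regulators, SPL and AP2-like probes, with open points where no array of that line was well above background. Orange points (crt/KU-2025) lie to the right for most flowering regulators and to the left for the AP2-like probes and 3 of the 4 SPL probes, and blue points (Ldn/KU-2025) lie mostly near 0 apart from the CAULIFLOWER D-like, MADS-box factor 56, centroradialis and gibberellin 20-oxidase probes.

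Another 9 probes, drawn from the study's lists of probes changed on these arrays and grouped here as flowering regulators, were read beside the members. Where 0.196% of all probes were down-regulated and 0.968% up-regulated in Ldn/KU-2025 relative to WT, 1 of the 9 was down-regulated and 0 were up-regulated. That probe was centroradialis (wheat0130Contig9162), named after the Antirrhinum gene that keeps the inflorescence apex growing, with signals of 1264.0 and 1331.2 on the WT arrays, 311.6 and 353.1 on those of Ldn/KU-2025, and 1052.7 and 1721.2 on those of crt/KU-2025. Ldn/KU-2025 lay below the other lines, 3.91-fold below WT (limma adjusted p = 0.0288), and the crt/KU-2025 values lay on both sides of WT. The call was lost on leaving out any WT or Ldn/KU-2025 array and with the replicate block.

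In crt/KU-2025, 8 of the 9 were up-regulated relative to WT, against 11.8% of all probes. These 8 were picked by the study as higher in crt/KU-2025 on these arrays, and centroradialis as lower in Ldn/KU-2025, so the counts are a description only. Both probes of LATE ELONGATED HYPOCOTYL, a morning gene of the circadian clock, were higher, with wheat0130Contig10623 at 228.9 and 254.2 in WT and 5129.8 and 5248.7 in crt/KU-2025, a 21.5-fold difference (limma adjusted p = 5.47e-05). An FD-like bZIP probe (wheat0130Contig13733), whose Arabidopsis namesake acts with the florigen FT at the shoot apex, was 5.33-fold higher (limma adjusted p = 0.000289), although in Ldn/KU-2025 it was 1.75-fold lower than WT (limma adjusted p = 0.0375). The gibberellin 20-oxidase probe, for an enzyme of gibberellin synthesis, rose over WT by at least 18.8-fold in crt/KU-2025 (limma adjusted p = 0.000409), and that of gibberellin 2-beta-dioxygenase 8, for an enzyme that inactivates gibberellins, at least 4.90-fold. A DELLA probe, for a repressor of the gibberellin response, was 3.84-fold higher.

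SPL proteins are transcription factors, many of them targets of the microRNA miR156, and some activate AP1/FUL-type genes in Arabidopsis. Of the 4 SPL probes, 0 passed the test in Ldn/KU-2025 against WT, with log2 ratios from -0.11 to 0.44. Of all probes, only 1.48% passed it as lower and 6.33% as higher. In crt/KU-2025, 3 were down-regulated and 1 was up-regulated, against 11.0% and 11.8% of all probes. These are the directions for which the study had picked the probes on these arrays. The SPL probe wheat0130Contig8035 had signals of 11369 and 11426.1 on the WT arrays, 10882.1 and 10267.5 on those of Ldn/KU-2025, and 78.0 and 74.0 on those of crt/KU-2025, 150-fold below WT (limma adjusted p = 2.36e-05). As with the members, WT and Ldn/KU-2025 were close and crt/KU-2025 was far lower. Of 3 AP2-like probes, all 3 were down-regulated in crt/KU-2025. In the other dwarf line 0 were, against 0.196% of all probes. There, 1 passed the test as lower with a log2 ratio of -0.86, against 1.48% of all probes. These 3 were picked by the study as lower in crt/KU-2025 on these arrays, where 11.0% of all probes were called so, and their count is a description.

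Probes that follow dividing cells and green tissue also differed between the arrays. The signals of 4 histone probes summed to 27007 and 26940 on the WT arrays, 6502 and 7086 on those of Ldn/KU-2025, and 2317 and 399 on those of crt/KU-2025. Those of 39 photosynthesis probes summed to 14976 and 14423 on the WT arrays, 62972 and 66309 on those of Ldn/KU-2025, and 24213 and 269294 on those of crt/KU-2025. All 4 histone probes were well above background on each WT and Ldn/KU-2025 array and 2 or 3 on those of crt/KU-2025, and 33 to 39 of the 39 photosynthesis probes were so on every array. Both sets were chosen by the study as changed in Ldn/KU-2025 on these arrays, so their shift between WT and that line is a description. The part of tissue make-up in the MADS-box values was not tested. In Ldn/KU-2025 against WT, 1 of the 4 histone probes was called down-regulated and 1 of the 39 photosynthesis probes up-regulated. The shares of all probes were 0.196% and 0.968%. These calls use a spread that includes the uneven crt/KU-2025 arrays. A fit of only the WT and Ldn/KU-2025 arrays called 4 and 39, where 113 of all 37826 probes were called lower and 529 higher. The signals of the 6 members called down-regulated in crt/KU-2025 differed between its arrays by 1.09-fold (WM7) to 1.97-fold (WM13). Of these members, all but WM8 were not well above background there, so the differences are mostly between dim signals.

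**Figure D4:**
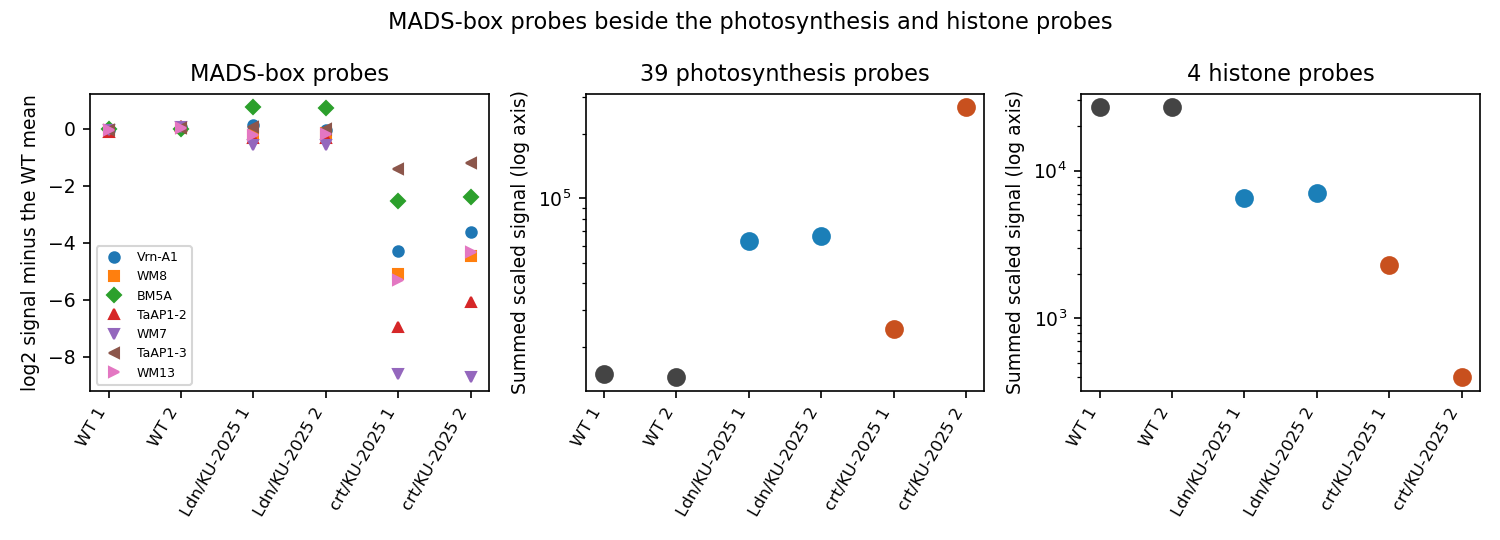
Left, log2 signal minus the WT mean of the 7 MADS-box probes on each array; middle and right, summed scaled signals on log axes of the 39 photosynthesis probes and the 4 histone probes on the same arrays. The members fall by more than 1 log2 unit only on the crt/KU-2025 arrays, the histone sums are 6502 and 7086 in Ldn/KU-2025 and 2317 and 399 in crt/KU-2025, and the photosynthesis sum spans 24213 to 269294 within crt/KU-2025.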

How the data were processed

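Total RNA of crown tissues from 3 lines, with 2 arrays each, was labelled with Cy3 and hybridized to the KOMUGI 38k array. The authors obtained background-subtracted and spatially detrended intensity values with Feature Extraction (9.5 by the submitters' notes, 10.7.3.1 in the file headers) and multiplied each array by 2500 over its mean trimmed of 2% at each end. The deposited table of these intensity values was used, and it matched the scanner files rescaled in the same way (median ratio 1.0004 to 1.0005). The 1417 control spots were left out. Log2 values of all 37826 probes and 6 arrays were fitted in limma 3.58.1 (R 4.3.3; lmFit, eBayes) with 1 mean per line. P-values were adjusted by Benjamini-Hochberg over all probes. Probes with at least a 3-fold change and an adjusted p under 0.05 were called up- or down-regulated. No floor was set. Where no array of a line had a probe well above background, its ratio has a bound, "at least N-fold". The bound is taken against the mean of the higher of its own signal and the lowest signal well above background on each array. It holds for the deposited signals and not for other background corrections. Numbers of arrays limit the precision, and p-values measure the spread between 2 arrays a line, pooled over the 3 lines.

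Replicate numbers did not pair the arrays: correlations of same-numbered deviations between lines were -0.07, 0.03 and -0.06. The members and the gene lists were chosen with earlier results of these data known. Named outside the members are the probes of those lists and the probes with the most similar profile. The alternatives were other scalings, quantile normalization, a normexp background correction, removal of dim probes, a fit of only the lines compared, each array left out, the replicate number as a block (replicate block), a t-test on linear signals as in the methods, and other fold limits. The fit was tested on simulated data. Python 3.11.15 with pandas 2.3.3, numpy 2.4.6 and matplotlib 3.10.9 was used for the summaries and plots. Low-temperature arrays were not analysed here.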

Additional observations from a re-analysis of the deposited data

Results flagged for a closer look

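The change in crt/KU-2025 differed from that in Ldn/KU-2025, both against WT, by the direct comparison of the dwarf lines (limma, at least 3-fold and an adjusted p under 0.05 over all probes) for 6 of the 7 members. All 6 were lower, where 9.98% of all probes were called lower. The log2 ratios, with Ldn/KU-2025 as the base, were -8.11 for WM7, -6.20 for TaAP1-2, -4.63 for WM13, -4.60 for WM8, -4.00 for Vrn-A1 and -3.22 for BM5A. All but WM8 were not well above background in crt/KU-2025. All these values depend on the background correction, and that of WM8 ran from -4.92 to -2.61 over the alternatives.

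Among the other MADS-box probes, the difference was -2.89 for MADS-box transcription factor 56 and 2.19 for WM30. Among the flowering regulators it was 5.12 for the late elongated hypocotyl probe (ncbi_gi_32128957_1517), 4.21 for LHY (wheat0130Contig10623), 4.38 for gibberellin 20-oxidase, 3.22 for the FD-like bZIP probe, 2.02 for both centroradialis and gibberellin 2-beta-dioxygenase 8, 1.97 for DELLA and 1.74 for ELF4. WM30 and gibberellin 2-beta-dioxygenase 8 were not well above background on any Ldn/KU-2025 array, so their differences are bounds, at least 4.03-fold and at least 4.04-fold. Gibberellin 20-oxidase was well above background on only 1 Ldn/KU-2025 array. The crt/KU-2025 arrays lay on a slide of their own, so all these differences and the slide cannot be told apart.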

How the results depend on the processing

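Of 294 alternative values of the members' log2 ratios, 277 kept their direction and side of an adjusted p of 0.05, 11 no longer passed it and 6 changed sign. The 6 were ratios near 0 in Ldn/KU-2025 against WT that passed in no setting. Vrn-A1 became -0.0439 with 75th percentile scaling and -0.0301 with quantile normalization, and TaAP1-3 became -0.0360 and -0.0078. On leaving out each array in turn, Vrn-A1 ran from -0.0456 to 0.1247, below 0 without replicate 1 of WT or of Ldn/KU-2025. The 11 were all BM5A or WM7 in Ldn/KU-2025 against WT, neither of which reached 3-fold. They came from leaving out any WT or Ldn/KU-2025 array, from the replicate block (adjusted p 0.0813 and 0.111) and, for WM7, from the methods' t-test on linear signals (adjusted p 0.0624). With no fold limit, 1 member was called lower and 1 higher in Ldn/KU-2025, against 0 and 0. Members called lower in crt/KU-2025 numbered 4 to 7 against WT and 4 to 7 against Ldn/KU-2025, with 4 under normexp, where Vrn-A1 and BM5A fell short of 3-fold, and 6 on leaving out any array. The replicate block moved no other member across the adjusted p.

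Over all probes, calls in Ldn/KU-2025 ran from 15 to 559 lower and 61 to 2393 higher. Against WT, crt/KU-2025 had 2178 to 9809 lower and 2526 to 13670 higher. Against Ldn/KU-2025 it had 1946 to 9444 lower and 1867 to 13020 higher. The lists moved too: photosynthesis probes called higher in Ldn/KU-2025 numbered 1 to 39, with 39 on leaving out either crt/KU-2025 array, and histone probes called lower there 0 to 4. Dim signals limit the size of the fall in crt/KU-2025, and 2 arrays a line limit small changes.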
